A study of Homo sapiens with 6 samples.

Results

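Cells switch off the MAP kinase signal with proteins that the same signal switches on. Here 10 genes for such inhibitors were examined in cells labelled Hep3B. They are 6 dual-specificity phosphatase genes (DUSP1, DUSP4, DUSP5, DUSP6, DUSP8 and DUSP10), 3 Sprouty genes (SPRY1, SPRY2 and SPRY4) and SPRED2. They were chosen by name from the 27009 genes of the deposited table, and all 10 were present. Hep3B is a human hepatocellular carcinoma line. Both groups carried a knockout of endogenous PD-L1, and the vector group had then received the empty vector. The nPD-L1 group, named for nuclear PD-L1, had received by lentivirus a PD-L1 coding sequence under a CMV promoter, in which a short leucine-cysteine-leucine stretch was replaced by alanine-cysteine-alanine. RNA was sequenced from 3 libraries per group, to ask which genes differ when nPD-L1 is overexpressed. Whether each stable line was 1 clone or a pool is not stated in the sources used here. The study describes the 3 per group as independent samples without saying whether they were separate cultures, so the p values measure only the spread between these libraries.

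In the ERK branch of MAP kinase signaling, growth factor receptors act through RAS, RAF and MEK to phosphorylate ERK, and parallel branches activate JNK and p38. Dual-specificity MAP kinase phosphatases remove the activating phosphates from the kinases. DUSP1, DUSP4 and DUSP5 act in the nucleus, DUSP6 acts in the cytoplasm on ERK, and DUSP8 and DUSP10 prefer JNK and p38. Sprouty and SPRED proteins sit upstream and restrain the step from receptor to RAF. Many of these genes are induced by ERK itself, so their transcripts are commonly read as a record of pathway activity.

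The values are scaled reads, that is, reads counted on a gene divided by a size factor of the library. Whole reads could be recovered, at 17427519 to 22253295 reads on genes per library. CD274, the gene for PD-L1, was examined first, and had 28.3, 38.4 and 47.8 scaled reads in vector replicates 1, 2 and 3 against 16.8, 19.2 and 30.9 in nPD-L1 replicates 1, 2 and 3. CD274 was thus no higher in the cells given the construct (log2 fold change −0.76 ± 0.34, SE, with limma adjusted p = 0.338). The 95% interval from limma was −1.52 to −0.01, so overexpression was not seen at this gene. The study describes the insert as PD-L1 sequence with that short stretch changed. Whether reads of the construct are counted on CD274 is not given in the sources used here. The CD274 level therefore does not settle the labels. Every direction below rests on them, and the second group is called the nPD-L1-labelled libraries. Of 8 hepatocyte markers, 7 were in the table, and AFP had no entry. ALB, APOA1, APOB and TTR, which encode plasma proteins of the liver, had at most 4 scaled reads in any library. FGB, a fibrinogen chain, made up most of the list, which summed to 982 to 1562 scaled reads with vector and 1064 to 1177 in the nPD-L1-labelled libraries. HNF4A, a liver transcription factor, went from 12.2 ± 6.52 to 45.5 ± 10.2 (SD, n = 3; adjusted p = 0.0232 from limma). Of 8 markers of leukocytes, endothelium, fibroblasts and squamous cells, 7 were in the table, and they summed to 122 to 179 and to 526 to 562 scaled reads. That difference was COL1A1, a fibrillar collagen, at 65.3 ± 16.5 and 466 ± 21.1 (SD, n = 3), and without it the sums were 71.7 to 95.9 and 56.0 to 97.5. PTPRC, PECAM1 and VWF had at most 4 in any library. SERPINA1, a further hepatocyte marker, was low at 20.6 ± 18.2 and 19.1 ± 1.98 (SD, n = 3). That the cells are Hep3B rests on the labels. With FGB abundant but ALB, APOA1, APOB and TTR near 0, the hepatocyte list does not bear out the name. The identity of the cells was not tested. The part of these markers in the results below was not tested.

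Promoters are shown for SPRY1 and DUSP8, the most lowered and most raised member, and for DUSP6 and DUSP1, of which DUSP1 was not called. RefSeq promoter windows (GRCh38.p14, 300 bases, from 250 before to 50 after a transcript start) matched 8 of the 10 genes, with 13 windows, since some genes have several starts. DUSP4 and DUSP5 had no entry. Below are the 140 bases before the start, 5′ to 3′ on the strand of the gene. They come from chr4:123398246-123398385 (+ strand) for SPRY1, chr12:89352502-89352641 (− strand) for DUSP6, chr11:1572272-1572411 (− strand) for DUSP8 and chr5:172771196-172771335 (− strand) for DUSP1. Capitals mark the cAMP response core TGACG on either strand, and in SPRY1 the ETS core CCGGAAG. The SPRY1 window was picked for display because it holds the ETS core, which its other window lacks.
SPRY1: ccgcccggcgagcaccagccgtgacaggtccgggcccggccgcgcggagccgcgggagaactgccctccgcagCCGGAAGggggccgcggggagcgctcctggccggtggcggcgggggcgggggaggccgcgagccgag
DUSP6: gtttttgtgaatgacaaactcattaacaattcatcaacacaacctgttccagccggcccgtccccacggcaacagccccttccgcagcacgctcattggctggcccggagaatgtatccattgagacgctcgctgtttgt
DUSP8: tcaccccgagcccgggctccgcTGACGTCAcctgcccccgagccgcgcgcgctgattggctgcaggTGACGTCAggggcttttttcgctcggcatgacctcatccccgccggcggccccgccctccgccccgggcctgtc
DUSP1: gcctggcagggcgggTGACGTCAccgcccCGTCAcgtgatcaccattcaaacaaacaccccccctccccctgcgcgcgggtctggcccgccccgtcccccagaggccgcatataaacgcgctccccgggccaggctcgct

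In the DUSP8 window the core occurred 4 times, as 2 palindromes in which a copy on each strand overlapped, beginning 118 and 74 bases before the start. The DUSP1 window also held 4 copies, beginning 172 (beyond the stretch shown), 125, 122 and 111 bases before the start, and those at 125 and 122 overlapped in the same way. The core was found in 6 of the 13 member windows and in 24.6% of 35116 windows of all genes. Beside DUSP8 and DUSP1, these were windows of DUSP10, SPRY2, SPRY4 and SPRED2. The genes with the core thus include members called higher, called lower and not called. The ETS core CCGGAAG, a letter string bound by factors downstream of ERK, was found in 1 of the 13 windows, 67 bases before 1 of the 2 SPRY1 starts, and in 10.3% of all windows. The AP-1 string TGANTCA was found in 1 member window, 6 bases before and 35 bases after a second SPRED2 start, against 7.71% of all windows. The SMAD string CAGACA and the CArG box were found in 0 of the 13 member windows, against 16.9% and 1.29% of all windows. All strings were sought on both strands, and a match is a run of letters and not a measured site.

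Compared with vector, the nPD-L1-labelled libraries had lower SPRY1, DUSP5, DUSP4, DUSP6 and SPRY2 and higher DUSP8 and SPRED2, while DUSP1, DUSP10 and SPRY4 did not pass the test. All 10 members passed the filter on low values (10 scaled reads in 3 or more libraries). A gene was called at an adjusted p under 0.05 in limma, over 15076 genes tested. Of the 10 members, 5 were called lower and 2 higher, where 0.922% of all genes tested were called lower and 4.04% higher (4.96% in either direction). The members were chosen with earlier results of these data known, so the comparison with all genes is a description and not a test. At an unadjusted p under 0.05, 6 members were lower and 2 higher, against 4.71% and 9.53% of all genes tested. The median log2 fold change of the members was −0.43, against −0.02 over all genes tested. In 5 members every nPD-L1-labelled library was below every vector library, which held for 8.54% of all genes tested, and in 3 members every one was above, which held for 12.0%. In bulk RNA, fewer cells with a transcript and less transcript per cell cannot be told apart.

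**Figure D1:**
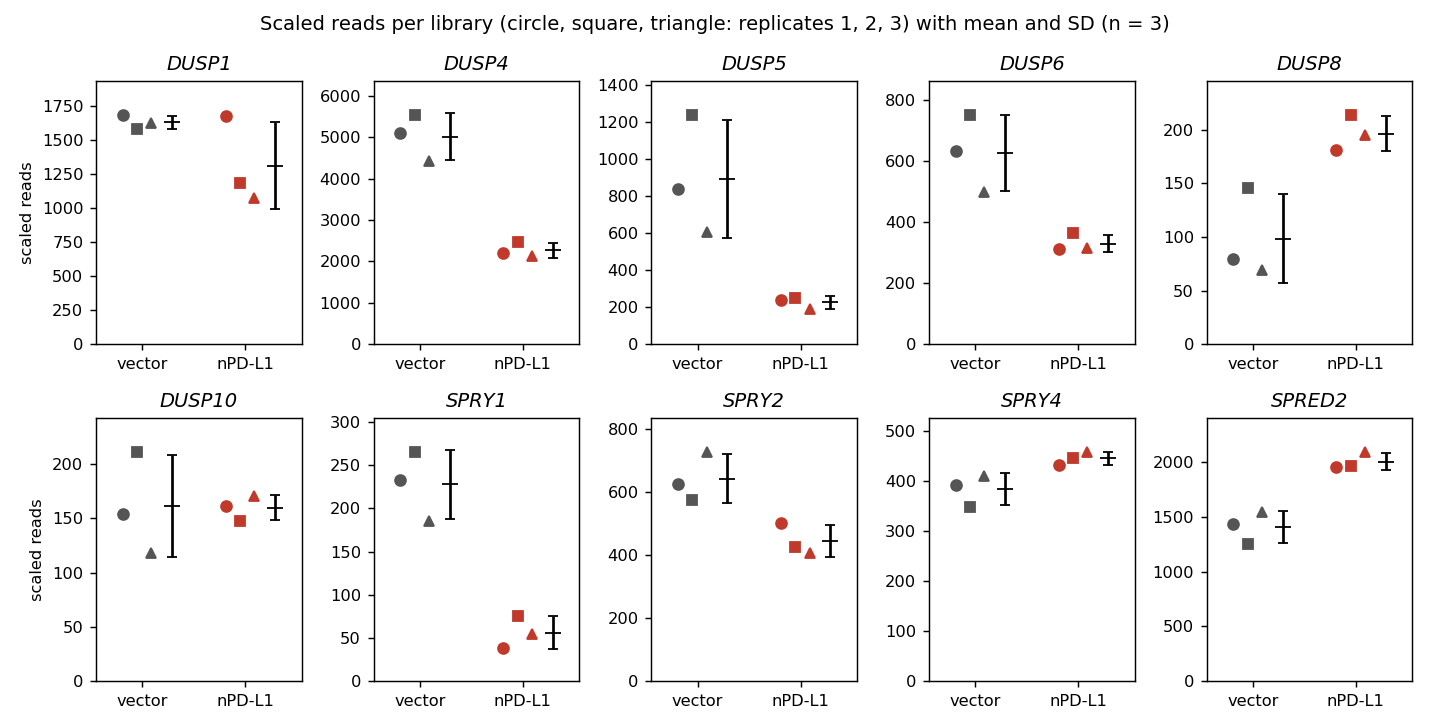
Scaled reads (vertical axis, from 0) of the 10 members in the 3 vector and 3 nPD-L1 libraries, with circle, square and triangle for replicates 1, 2 and 3 and a bar for the mean and SD (n = 3). The groups are apart in 8 panels and overlap for DUSP1 and DUSP10, and SPRY1 falls to 37.8 to 75.9 from 186 to 265.

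Among the nuclear phosphatases, DUSP5, which inactivates ERK and holds it in the nucleus, fell most. It had 839.8, 1237 and 605 scaled reads in vector replicates 1, 2 and 3, and 239, 249.8 and 188 in nPD-L1 replicates 1, 2 and 3. The lowest vector library was thus well above the highest nPD-L1-labelled library, although the vector libraries differed among themselves. DUSP5 was 3.81-fold lower on the log2(value + 1) scale (log2 fold change −1.93 ± 0.23, SE, with limma adjusted p = 0.00051), and 24 of the 15076 genes had a more negative change. The gene lies on chromosome 10, 110497838 to 110511544 (+ strand, GRCh38).

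DUSP4, which acts on ERK, JNK and p38 in the nucleus, had 5102, 5532 and 4426 scaled reads with vector and 2202, 2480 and 2142 in the nPD-L1-labelled libraries. The groups did not overlap and the spread within each was small. It was 2.20-fold lower (log2 fold change −1.14 ± 0.11, SE, with limma adjusted p = 0.00014), and lies on chromosome 8, 29333064 to 29350668 (− strand).

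DUSP1, an early response phosphatase that acts on JNK and p38 as well as ERK, behaved less evenly. Its vector libraries had 1684, 1586 and 1627 scaled reads, and those labelled nPD-L1 had 1678, 1189 and 1076. nPD-L1 replicate 1 was at the level of the vector libraries and the other two were below all of them. The log2 fold change was −0.34 ± 0.15 (SE), short of the threshold in limma (adjusted p = 0.337). Without nPD-L1 replicate 1 it was −0.53 and passed the threshold (adjusted p = 0.0445 from limma). DUSP1 was called in only that 1 of 16 alternative fits. Without nPD-L1 replicate 3 its log2 fold change was −0.21 (adjusted p = 0.830 from limma).

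The cytoplasmic ERK phosphatase DUSP6 had 632, 749.9 and 499.9 scaled reads with vector and 311, 363 and 315 in the nPD-L1-labelled libraries. It was 1.88-fold lower with no overlap (log2 fold change −0.91 ± 0.16, SE, with limma adjusted p = 0.0057). The call rested narrowly on nPD-L1 replicate 1, without which the adjusted p was 0.0509 at a log2 fold change of −0.87. DUSP6 lies on chromosome 12, 89347232 to 89353271 (− strand), and shares 1875 exon bases with an antisense gene, AC024909.2. The library preparation is not stated to keep strand, so reads of the pair cannot be told apart, but the antisense gene itself was given at most 3.36 scaled reads in any library.

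Of the members that prefer the stress kinases, DUSP8 passed the test and DUSP10 did not. DUSP8, which acts on JNK and p38, rose from 79.7, 146 and 69.6 scaled reads in vector replicates 1, 2 and 3 to 181, 213 and 195 in the nPD-L1-labelled libraries. Vector replicate 2 was nearest to the other group, but no libraries overlapped. The rise was 2.09-fold (log2 fold change 1.06 ± 0.25, SE, with limma adjusted p = 0.0381), on chromosome 11, 1554044 to 1571920 (− strand). The call was lost under upper-quartile scaling (adjusted p = 0.0572 from limma). It was also lost without vector replicate 1 (0.175), vector replicate 3 (0.0667) or nPD-L1 replicate 1 (0.129), 2 (0.149) or 3 (0.157), with log2 fold changes of 0.86 to 1.12 in those fits.

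DUSP10, a phosphatase of JNK and p38, had 154, 211 and 118 scaled reads with vector and 161, 148 and 171 in the nPD-L1-labelled libraries. All 3 of the latter lay within the range of the vector libraries. Its log2 fold change was 0.02, with a 95% interval of −0.44 to 0.49 from limma, so changes within these bounds are not excluded.

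SPRY1, which blocks growth factor signaling to ERK, had the largest change of the 10 members. Its scaled reads were 233, 265 and 186 with vector and 37.8, 75.9 and 54.0 in the nPD-L1-labelled libraries. It was 4.14-fold lower (log2 fold change −2.05 ± 0.26, SE, with limma adjusted p = 0.00077), and 20 of the 15076 genes had a more negative change. The gene lies on chromosome 4, 123396795 to 123403760 (+ strand), and the start shown above with the ETS core is the second of its 2 RefSeq starts.

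SPRY2, the most abundant Sprouty per length, had 627, 576 and 727 scaled reads with vector and 503, 426 and 408 in the nPD-L1-labelled libraries. It was 1.44-fold lower with no overlap (log2 fold change −0.53, standard error 0.13), at an adjusted p of 0.0479 from limma that lay just inside the threshold. The call was lost when a value of 10 in every library was required (0.0501) and in every fit without 1 library except that without vector replicate 2. In those 5 fits the adjusted p was 0.163 and 0.111 without vector replicates 1 and 3, and 0.0649, 0.1999 and 0.227 without nPD-L1 replicates 1, 2 and 3.

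SPRY4 was not called. It had 393, 349 and 410.5 scaled reads with vector and 433, 447 and 458 in the nPD-L1-labelled libraries, so the groups did not overlap, but the log2 fold change was only 0.22 (95% interval −0.04 to 0.48, adjusted p = 0.472 from limma). The interval leaves out a fall of the size seen in SPRY1 or SPRY2.

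SPRED2, which keeps RAF from being activated by RAS, rose from 1433, 1248 and 1542 scaled reads to 1956, 1967 and 2092 in the nPD-L1-labelled libraries. All 3 were above all vector libraries. The rise was 1.43-fold (log2 fold change 0.51 ± 0.11, SE, with limma adjusted p = 0.0167). Without vector replicate 1 or nPD-L1 replicate 1, 2 or 3 the change was 0.48 to 0.53, but the adjusted p was 0.0781, 0.0725, 0.0736 and 0.109 in limma. Without vector replicate 1 or any single nPD-L1-labelled library, therefore, 0 members were called higher, against 2 in all 6 libraries, while edgeR and DESeq2 on all 6 each called 2.

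**Figure D2:**
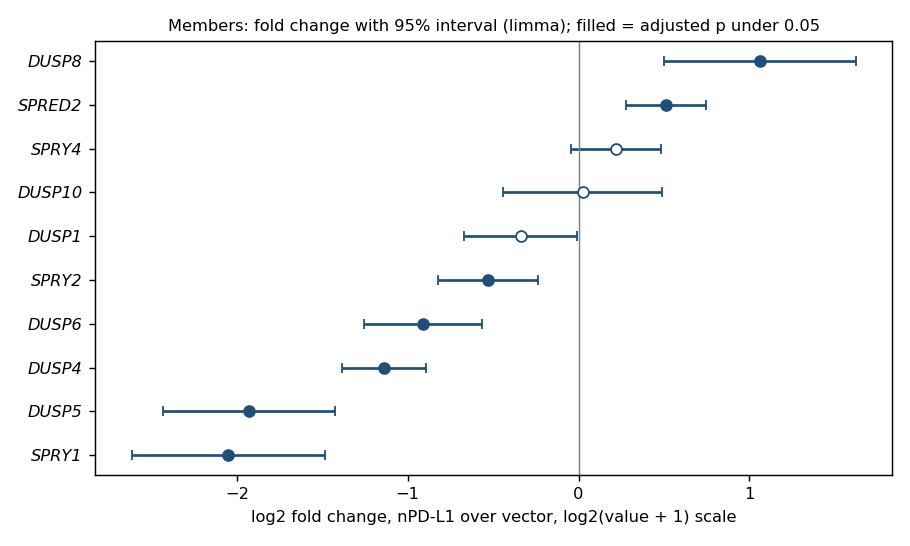
Log2 fold change of each member, nPD-L1-labelled libraries over vector, on the log2(value + 1) scale (horizontal axis), with 95% intervals from limma (n = 3 per group) and filled points for an adjusted p under 0.05. Values run from −2.05 for SPRY1 to 1.06 for DUSP8, and the intervals of SPRY4 and DUSP10 include 0.

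The vector libraries spread in an ordered way. Vector replicate 2 was the highest of its group for 6 members (DUSP4, DUSP5, DUSP6, DUSP8, DUSP10 and SPRY1) and the lowest for the other 4, and was never in the middle. Vector replicate 3 was the lowest for those same 6 and the highest for SPRY2, SPRY4 and SPRED2. DUSP5 deviated by 0.53 and −0.50 from the vector mean in replicates 2 and 3 on the log2 scale, and DUSP8 by 0.64 and −0.42. These were also the replicates farthest apart over all genes, with 1281 of 15076 genes more than 2-fold apart, against 549 to 883 for the other pairs within a group. Of the members called lower, only SPRY2 was lowest in vector replicate 2. Without that library its log2 fold change went to −0.60, while those of DUSP5 and SPRY1 went to −1.67 and −1.93. DUSP5, DUSP4 and SPRY1 were called in all 16 alternative fits, with adjusted p values of at most 0.00825.

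To compare levels between genes, the scaled reads were divided by the length of the gene model, which gives scaled reads per kb. With vector, DUSP1 was the highest (808 ± 24.3, SD, n = 3), followed by DUSP4 (692 ± 76.8), DUSP5 (342 ± 122), SPRED2 (273 ± 28.9), SPRY2 (212 ± 25.4) and DUSP6 (135 ± 27.0). SPRY4 (58.5 ± 4.82), SPRY1 (57.6 ± 10.1) and DUSP10 (55.4 ± 16.0) were next and could not be ordered, since each overlapped with its neighbour, as did DUSP5 and SPRED2. DUSP8 was the lowest at 21.3 ± 8.95.

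In the nPD-L1-labelled libraries, DUSP1 was still the highest (651 ± 159 scaled reads per kb) but SPRED2 (389 ± 14.7) stood above DUSP4 (313 ± 24.9) with no overlap. SPRY2 (147 ± 16.5) followed. DUSP5 (86.2 ± 12.6) overlapped with DUSP6 (71.2 ± 6.24), and DUSP6 with SPRY4 (67.9 ± 1.94). DUSP10 (54.9 ± 3.98) and DUSP8 (42.5 ± 3.56) came next, and SPRY1 was now the lowest at 14.1 ± 4.82. All other neighbours in this order were apart.

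**Figure D3:**
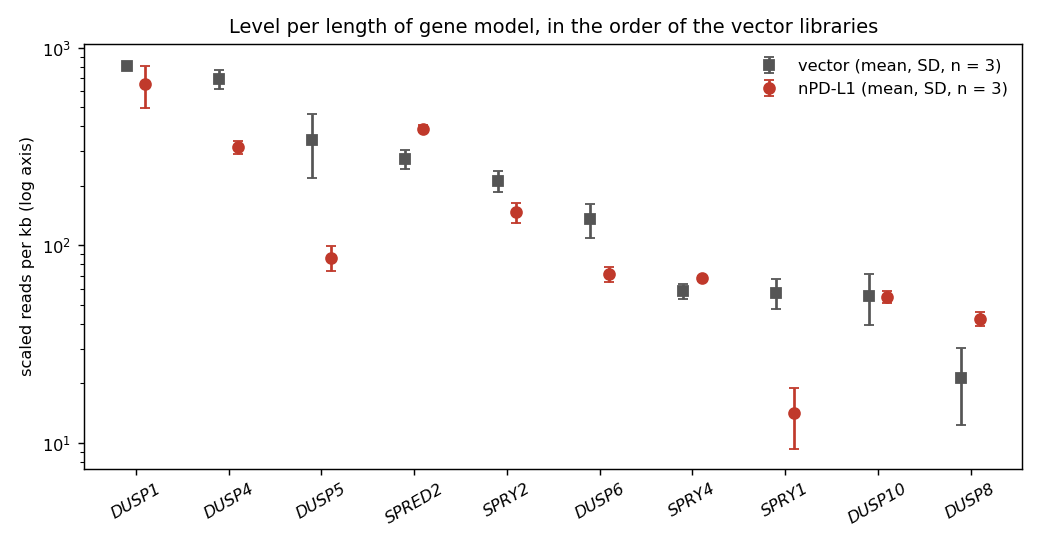
Scaled reads per kb of gene model (log axis) of the 10 members, with vector as grey squares and nPD-L1 as red circles (mean and SD, n = 3), ordered by the vector level. SPRY1 is above DUSP8 with vector (57.6 and 21.3) and below it with nPD-L1 (14.1 and 42.5).

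Summed per kb, the 6 DUSP members amounted to 2065, 2286 and 1811 with vector and 1388, 1202 and 1069 in the nPD-L1-labelled libraries (replicates 1 to 3). DUSP1 made up 39.7% ± 5.11 of the sum with vector and 52.9% ± 6.06 in the nPD-L1-labelled libraries (SD, n = 3). The DUSP5 part went from 16.3% ± 4.01 to 7.09% ± 0.752. DUSP8 and DUSP10, the phosphatases for stress kinases, went from 1.02% ± 0.315 and 2.66% ± 0.469 to 3.54% ± 0.624 and 4.56% ± 0.804. DUSP10 itself was at 55.4 and 54.9 scaled reads per kb, and DUSP1 at 808 and 651. The larger parts of DUSP10 and DUSP1 thus follow from the smaller sum and not from a rise.

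The 3 Sprouty genes summed to 325, 309.7 and 349 scaled reads per kb with vector and to 241, 227 and 218 in the nPD-L1-labelled libraries. The SPRY2 part was 64.4% ± 3.80 and 64.0% ± 4.05 (SD, n = 3), within the spread of the libraries. The parts of SPRY1 and SPRY4 were alike with vector, 17.7% ± 4.10 and 17.8% ± 0.626, and unlike in the nPD-L1-labelled libraries, at 6.21% ± 2.23 and 29.8% ± 2.35. These sums and parts follow from the member values above and were given no test.

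**Figure D4:**
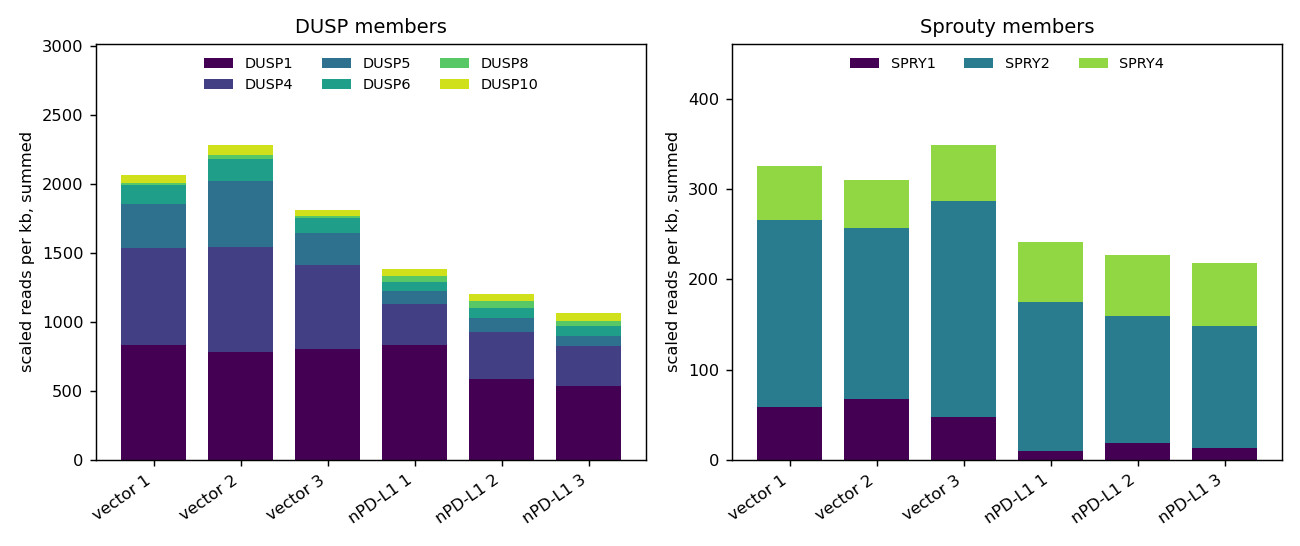
Scaled reads per kb summed over the 6 DUSP members (left) and the 3 Sprouty members (right) in each library, stacked by gene, with the vertical axis from 0. The vector libraries sum to 1811 to 2286 and those labelled nPD-L1 to 1069 to 1388 for DUSP, and to 309.7 to 349 and 218 to 241 for Sprouty.

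Relatives outside the 10 members were listed as well. Of 8 further genes of the families, 7 were tested. In limma 1 was called lower (14.3%, against 0.922% of all genes tested) and 0 higher (against 4.04%). At an unadjusted p under 0.05, 1 was lower and 0 higher. edgeR called 0 in either direction, while DESeq2 called the same numbers as limma. The gene called was DUSP16, a JNK phosphatase, at 865 ± 36.7 and 637 ± 57.2 scaled reads (SD, n = 3; log2 fold change −0.44, adjusted p = 0.0440 from limma). Of the fits without 1 library, it was called only in that without vector replicate 2, and reached 0.184 in the others. SPRED1, the one not called with the most scaled reads over the 6 libraries, not divided by length, had 1192 ± 45.8 and 1029 ± 47.5 scaled reads, a log2 fold change of −0.21 (adjusted p = 0.355). DUSP2 had too few reads to be tested.

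The genes that carry the signal, from receptor to kinase, were given in lists of the pathway. Over the 7 lists beside the members, 10 of 92 genes tested were called higher (10.9%) and 3 lower (3.26%), against 4.04% and 0.922% of all genes. Of the growth factor receptors, 1 of 10 tested was called, FGFR3, a fibroblast growth factor receptor, which rose from 45.1 ± 3.29 to 83.3 ± 7.45 scaled reads (log2 fold change 0.87, adjusted p = 0.0378 from limma). It was called only in the fits without vector replicate 2 or 3, and reached 0.188 in the others. MET, the hepatocyte growth factor receptor, had the most scaled reads of the rest by the same measure and a log2 fold change of 0.22 (adjusted p = 0.594 from limma).

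Of 19 genes from adaptors to ERK, 2 were called higher (10.5%) and 0 lower in limma, against 4.04% and 0.922% of all genes tested. At an unadjusted p under 0.05, 8 were higher and 0 lower, against 9.53% and 4.71%. edgeR called 2 higher and 0 lower, and DESeq2 3 higher and 0 lower. KSR2, a scaffold for RAF, MEK and ERK, rose from 66.6 ± 45.9 to 367 ± 36.8 scaled reads (SD, n = 3; log2 fold change 2.68, adjusted p = 0.0045 from limma). SOS2, an exchange factor that loads RAS, rose from 470.2 ± 27.0 to 766 ± 78.2 (0.70, adjusted p = 0.0050). PTPN11, the phosphatase SHP2 that promotes RAS signaling and by that measure the first of the list not called, changed by 0.11. KSR2 and SOS2 were called in each of the 6 fits without 1 library (adjusted p at most 0.0427 from limma).

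Of 18 tested genes of the JNK, p38 and ERK5 branches and the GADD45 family, 2 were called higher (11.1%) and 1 lower (5.56%). The shares over all genes tested were 4.04% and 0.922%. GADD45B, which can activate the p38 and JNK kinase MAP3K4, rose from 593 ± 93.1 to 2338 ± 133 scaled reads (log2 fold change 1.99, adjusted p = 5.6e-06 from limma). GADD45A fell from 744 ± 23.7 to 419.7 ± 22.2 (−0.83, adjusted p = 0.0010). MAP2K3, a kinase that activates p38, rose from 2501 ± 110.1 to 3279 ± 123 (0.39, adjusted p = 0.0349), and of the fits without 1 library was called only in that without vector replicate 2, reaching 0.218 in the others. MAPK9, a JNK, changed by −0.02.

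Brakes of other kinds, such as RAS GTPase-activating proteins, were also listed. Of 14 tested, 2 were called higher (14.3%) and 0 lower in limma, against 4.04% and 0.922% of all genes tested. At an unadjusted p under 0.05, 3 were higher and 0 lower, against 9.53% and 4.71%. edgeR and DESeq2 each called 2 higher and 0 lower. DAB2IP, a RAS GTPase-activating protein, rose from 573 ± 78.0 to 1208 ± 63.3 scaled reads (log2 fold change 1.08, adjusted p = 0.00035 from limma). SH2B3, an adaptor that dampens cytokine and growth factor receptors, rose from 1058 ± 191 to 1732 ± 43.9 (0.73, adjusted p = 0.0082), and lost its call without nPD-L1 replicate 1 or 3 (adjusted p up to 0.0603). ERRFI1, an inhibitor of the EGF receptor and by that measure the first not called, changed by 0.09.

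Other genes listed as ERK output were called in both directions. The list is mostly of genes that ERK is known to induce. It also holds CIC, a repressor that is not such a gene, which changed by 0.02 (adjusted p = 0.943 from limma). Of 15 tested, 3 were called higher (20%) and 1 lower (6.67%), against 4.04% and 0.922% of all genes tested. At an unadjusted p under 0.05 in limma, 6 were higher and 2 lower, against 9.53% and 4.71% of all genes tested. The median log2 fold change of the 15 was 0.07. PHLDA1, an early growth factor response gene, fell from 6759 ± 523 to 4189 ± 295 scaled reads (log2 fold change −0.69, adjusted p = 0.0025 from limma). IER3, an immediate-early gene, rose from 4599 ± 339 to 9827 ± 1045 (1.09, adjusted p = 0.00019), and EPHA2, an ephrin receptor, from 3242 ± 501 to 5049 ± 377 (0.65, adjusted p = 0.0124). EGR1, an immediate-early transcription factor, rose from 372 ± 84.5 to 686 ± 188 (0.87, adjusted p = 0.0345). PHLDA1 and IER3 were called in all 6 fits without 1 library, EPHA2 lost its call without nPD-L1 replicate 1 or 3 (adjusted p up to 0.0885) and EGR1 kept it only without vector replicate 2 or nPD-L1 replicate 2 (up to 0.151 in the others). CCND1, which encodes cyclin D1 and was by that measure the first not called, changed by 0.39 (adjusted p = 0.142). ETV4 and ETV5, ETS factors that often move with DUSP6 and Sprouty genes and were picked out after their values were seen, changed by −0.08 and −0.09 (adjusted p = 0.774 and 0.730 from limma).

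Of the effector kinases downstream of ERK and p38, 0 of 9 tested were called in limma, edgeR or DESeq2, and 0 had an unadjusted p under 0.05 in limma. The share of all genes tested that limma called in either direction was 4.96%. RPS6KA3, a ribosomal S6 kinase and by that measure the first of the list, changed by 0.25.

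**Figure D5:**
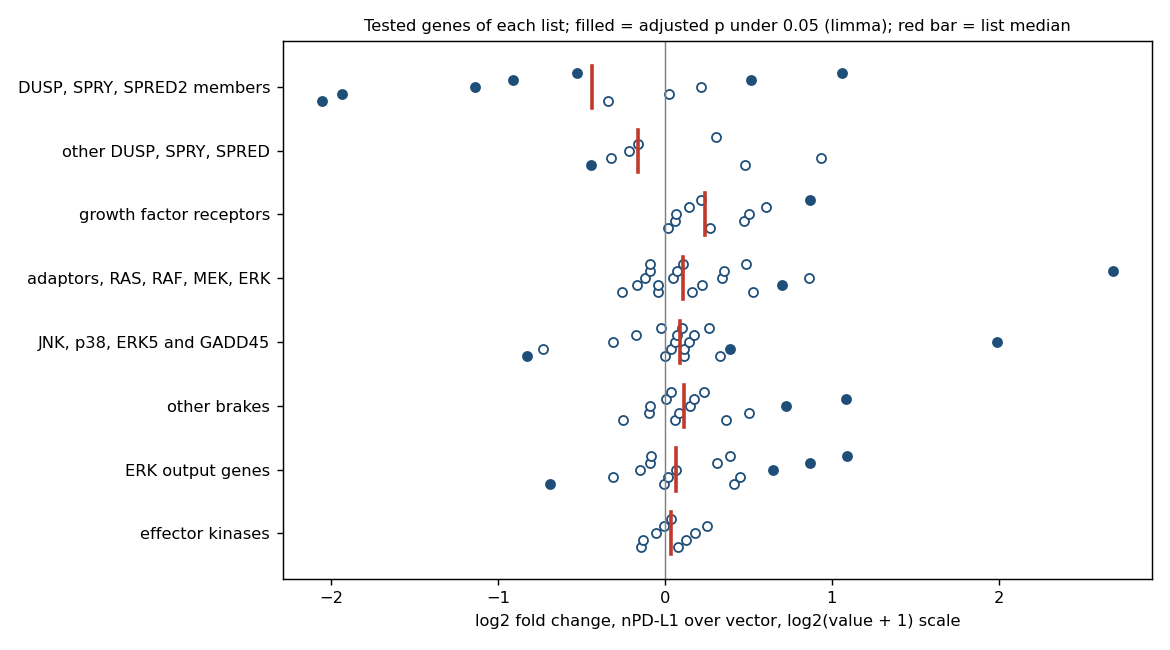
Log2 fold change, nPD-L1-labelled libraries over vector, on the log2(value + 1) scale (horizontal axis) for every tested gene of the members and of 7 other pathway lists (rows), with filled points for an adjusted p under 0.05 in limma and a red bar for the median of each list. The members have a median of −0.43, the 15 ERK output genes 0.07, and KSR2 stands farthest to the right at 2.68.

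The genes whose pattern over the 6 libraries was most like that of a member were sought among 10715 genes whose mean was 100 scaled reads or more, as a description. The points share the 2 groups, so any gene that differs between them scores high. For SPRY1 the closest were UGCG, the enzyme that makes glucosylceramide (Pearson's r = 0.997 on the log2 scale), HSPA12B (0.994), TIGD2 (0.992) and RAB9A, a GTPase of late endosomes (0.989). UGCG had 1592, 1582 and 1387 scaled reads with vector and 600.0, 878 and 775 in the nPD-L1-labelled libraries, so that, like SPRY1, it was lowest in nPD-L1 replicate 1 and highest of that group in replicate 2. For DUSP5 the closest were CBX8, a Polycomb protein (0.997), the long noncoding RNA CYTOR (0.995), CHST7, a sulfotransferase (0.995), and HHEX, a homeobox factor (0.994). UGCG, TIGD2, RAB9A, CBX8 and HHEX were called lower. HSPA12B, CYTOR and CHST7 were not called (adjusted p = 0.112, 0.324 and 0.273 from limma). Their log2 fold changes were −0.54, −0.24 and −0.29, smaller than those of SPRY1 and DUSP5. HHEX had 1479, 1938 and 1110 scaled reads with vector and 685, 607 and 556 in the nPD-L1-labelled libraries, and shared with DUSP5 the order of the vector libraries.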

How the data were processed

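Total RNA from 6 libraries of cells labelled as PD-L1-knockout Hep3B (3 vector, 3 nPD-L1) was sequenced. Per the labels, the authors' processing used CASAVA, HISAT2 (version 2.0.5) and hg38. The counting program is not given in the sources used here. The authors' deposited table is a signal, reads per gene divided by a size factor per library, although it is presented as raw counts. It also holds the authors' group means, a log2 fold change, p-values and adjusted p-values of their own comparison, which were not used. Gene lengths, in bases, and coordinates are those of the table, and the members' coordinates equal those of GENCODE release 29.

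In all 6 libraries 100% of values were whole multiples of the value of 1 read (tolerance 0.01 read), high values included. This also holds in vector replicate 1 and nPD-L1 replicate 2, whose step is 1.01.

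limma (version 3.58.1, R 4.3.3) was run on log2(value + 1) with trend and robust moderation, on 15076 genes (10 scaled reads or more in 3 or more libraries), with Benjamini-Hochberg adjustment over all of them. The recovered reads were tested in edgeR 4.0.16 and in DESeq2 1.42.0 as alternatives, beside other scalings, filters, pseudocounts, moderation, a replicate block, a 2-fold requirement and each library left out. The fits were checked on simulated data. Members, lists and tests were chosen with earlier results of these data known. Text names all members, every called gene of each list, the gene not called with the highest mean scaled reads over the 6 libraries (not divided by length), and the 4 most similar genes for SPRY1, which had the largest change and the lowest level of the called members, and for the next most lowered, DUSP5. AFP, CD3E, KDR and DOK2 were in the lists but had no entry under those names in the deposited table. The labels name no batch.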

Additional observations from a re-analysis of the deposited data

How the results depend on the processing

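Of 160 refits of single members, 142 kept their side of the threshold, 17 lost a call (DUSP6, DUSP8, SPRY2 and SPRED2) and 1 gained one (DUSP1). The sign was kept in all but DUSP10, which was not called in any and went from 0.02 to −0.03 under upper-quartile scaling, −0.18 without vector replicate 3, −0.02 without nPD-L1 replicate 3 and −0.0094 in DESeq2. The members called were 2 higher and 5 lower. They were 1 higher under upper-quartile scaling, and 1 higher and 3 lower when a 2-fold change was also required. With each library left out they were 0 to 2 higher and 4 to 5 lower. Over all genes, 609 were called higher and 139 lower, 306 and 68 with the 2-fold change, 350 to 793 and 77 to 244 with each library left out, and 758 and 202 in DESeq2. Of the other pathway genes, 10 were called higher and 3 lower, 4 and 0 with the 2-fold change, and 5 to 12 and 2 to 4 with each library left out. The replicate block gave 927 higher and 258 lower genes and the same 2 and 5 member calls. Same-numbered libraries did not all deviate together (correlations −0.01, 0.23 and 0.13 for replicates 1, 2 and 3). Vector replicates 2 and 3 each correlated best with the nPD-L1 replicate of the same number. Vector replicate 1 correlated best with nPD-L1 replicate 3 (0.07). The labels state no pairs, so the numbers were not taken as pairs, and pairing remains possible. Upper-quartile scaling shifted all log2 fold changes by a median of −0.05. The number of libraries, 3 per group, limits the precision. Counting error and the spread between libraries were not separated.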
